A study of Homo sapiens with 12 samples.

Results

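The genes described here encode the AP-1 transcription factors: 9 symbols of the FOS, JUN, ATF3 and BATF families, matched by gene ID to the authors' deposited table of 5759 genes. The table listed 3 of the 9: FOSL2 (gene ID 2355), FOS (2353) and JUNB (3726). The other 6 (FOSB, FOSL1, JUN, JUND, ATF3 and BATF) are not analysed here. The cells were MOLT4, an established human T lymphoblast line with the genotype label WT, in 4 groups of 3 samples. DMSO was given for 6 h in one group, 0.1 µM of compound 955 for 1 h or for 6 h in another pair, and 1 µM of SNS-032 for 6 h in the last. SNS-032 inhibits cyclin-dependent kinases, among them CDK9, which releases paused RNA polymerase II. Compound 955 is a conjugate that carries SNS-032 as its warhead, and the series title describes piperlongumine conjugates that induce degradation of target proteins.

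AP-1 is a dimer of basic leucine zipper (bZIP) proteins. A FOS-family protein pairs with a JUN-family protein, while JUN proteins can also pair with each other, with ATF3 or with BATF. FOS and JUNB are classical immediate early genes: growth factors, stress and T-cell receptor signals switch them on within minutes through MAP kinases and SRF, and their mRNAs are short-lived because of AU-rich elements in the 3′ UTR. In T cells, AP-1 acts with NFAT at cytokine genes, and BATF and JUNB dimers act with IRF4.

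The sequences upstream of the 3 listed genes are shown because FOSL2 and FOS were higher, and JUNB lower, in the same SNS-032 comparison under the authors' scaling. They come from RefSeq (GRCh38.p14), and the submitters' processing notes name the matching build, hg38. Each line gives the 100 bases before the annotated start, 5′ to 3′. Capitals mark a TATA box, a CCAAT box, the cAMP response element (CRE) or the CRE-like TGACGTTT, and other CRE-like strings are left unmarked.
FOSL2, chr2:28392758-28392857, plus strand: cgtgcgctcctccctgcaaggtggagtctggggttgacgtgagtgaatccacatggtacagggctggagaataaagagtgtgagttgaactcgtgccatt
FOS, chr14:75278728-75278827, plus strand: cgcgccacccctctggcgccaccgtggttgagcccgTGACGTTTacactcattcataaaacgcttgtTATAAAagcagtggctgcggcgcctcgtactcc
JUNB, chr19:12791386-12791485, plus strand: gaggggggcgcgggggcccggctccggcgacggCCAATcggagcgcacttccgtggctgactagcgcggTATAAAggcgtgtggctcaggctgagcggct

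FOS and JUNB each held the TATA box TATAAA, starting 33 and 31 bases before the start site. Among 27305 promoters searched over 250 bases on both strands, 11.1% held this box, and among the 4534 promoters of listed genes 6.15% did. JUNB also held CCAAT, starting 67 bases before its start (33.0% of all promoters), and FOS held the CRE-like TGACGTTT, starting 64 bases before its start (0.458%). In FOSL2, the exact letters of these 3 elements were not in the 250 bases searched. Other CRE-like strings were not searched for, and the FOSL2 line holds one, tgacgtga, so FOSL2 is not shown to lack a CRE-like element. The canonical AP-1 site (TGACTCA) was in none of the 3 windows and in 4.16% of all promoters, and the full CRE (TGACGTCA) likewise in none and in 1.76%. All 3 windows were rich in G and C, at 69.6% for FOSL2, 64.8% for FOS and 70.8% for JUNB, beside a median of 64.8% over the promoters of listed genes.

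The 3′ UTR stretches with the most copies of the AU-rich pentamer ATTTA (capitals) are shown because this element marks the short-lived mRNAs of the family. They are 30 bases of the GENCODE 29 transcripts, and where a gene has equal stretches the first is given.
FOSL2: agaagaaattgacATTTAttttattATTTA
FOS: aaacgttttattgtgtttttaATTTATTTA
JUNB: catattgaatataatatatttgtgtATTTA

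FOS had 5 pentamers in a 3′ UTR of 806 bases, JUNB had 2 in 500 bases and FOSL2 had 9 in 4864 bases. At least 1 pentamer was present in 60.3% of 19644 protein-coding genes. The longer element TTATTTATT occurred 1 time each in FOS and FOSL2, 0 times in JUNB, and in 6.86% of protein-coding genes. JUNB is a single-exon gene of 1830 bases (chr19:12791486-12793315), as are 6.66% of protein-coding genes by exon number. FOS has 4 exons in 3403 bases (chr14:75278828-75282230), and FOSL2 has 4 exons in 24460 bases (chr2:28392858-28417317). The nearest protein-coding genes after FOS on chromosome 14 were those of other AP-1 proteins, JDP2 at 144713 bases and BATF at 240239 bases.

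Values per sample were not used here, so each value below is one log2 fold change per gene and comparison, with DMSO at 6 h as the reference. Sequencing depth is unknown. The standard error is the one that the authors' F statistic implies: the size of the log2 fold change divided by the root of F. Each 95% interval follows from it and from the denominator degrees of freedom of the gene, 23.3 for FOSL2 and FOS and 14.8 for JUNB. To be past the threshold, a gene needed a false discovery rate (FDR) under 0.05 together with a log2 fold change of 1 or more in size. Of the 5759 genes in the table, 5757 were past it in at least 1 comparison. The members were thus chosen by their values in the 3 comparisons with DMSO, which are given as a description. The labels do not say whether the 3 samples of a group came from separate cultures, so the errors may be technical in part. Among T lymphoblast markers, 7 of 18 were in the table, with average levels between 3.74 (RAG2) and 8.06 (CD1E) on the log2 CPM scale.

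FOSL2, which encodes the FOS-family protein FRA-2, lay on opposite sides of DMSO at the early and late times in the authors' scaling. Its log2 fold change after 1 h of 955 was -1.31 in the authors' deposited table, with an FDR of 0.0166. The implied standard error was 0.32 and the 95% interval ran from -1.98 to -0.65, so the level was 0.403 of that in DMSO. After 6 h of 955 the authors' deposited table gave 1.78 (FDR 6.85e-05, standard error 0.31, interval 1.13 to 2.42), a level 3.42 times that in DMSO. The SNS-032 value in the authors' deposited table was 1.46 (FDR 0.000569, standard error 0.31, interval 0.82 to 2.11), or 2.76 times. From low to high, the FOSL2 levels ran from 955 at 1 h through DMSO to SNS-032 and 955 at 6 h, and the last pair did not differ beyond the error. In bulk RNA, a smaller share of cells with the transcript and less of it per cell cannot be told apart. The 1 h interval and both 6 h intervals lay on different sides of 0. Averaged over all samples, FOSL2 stood at 2.95 on the log2 CPM scale (7.72 on the linear CPM scale) in the authors' deposited table, below the median of 4.15 of the listed genes.

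FOS, the founding member of the family, was higher than in DMSO in both 6 h groups under the authors' scaling, and furthest with SNS-032. Its log2 fold change in the authors' deposited table was 0.40 after 1 h of 955 (FDR 0.921, standard error 0.42), with an interval from -0.46 to 1.26 that spans 0. After 6 h of 955 the authors' deposited table gave 1.36 (FDR 0.0146, standard error 0.42, interval 0.50 to 2.22), a level 2.57 times that in DMSO. For SNS-032 the authors' deposited table gave 2.31 (FDR 0.000109, standard error 0.43, interval 1.43 to 3.19), or 4.97 times. From low to high, the FOS levels ran from DMSO through 955 at 1 h and then 6 h to SNS-032, and the 2 lowest did not differ beyond the error. By the test of their difference described below, 955 at 6 h and SNS-032 had an adjusted p of 0.289, so the order of these groups is not established. FOS had the lowest average level of the 3, at 1.88 on the log2 CPM scale (3.68 on the linear CPM scale) in the authors' deposited table, and the widest intervals.

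JUNB, a JUN-family protein that partners FOS proteins and BATF, was below DMSO in each comparison under the authors' scaling and past the threshold with SNS-032, a call that ended when the values were centred on the median of the listed genes. So centred, it was at -0.10 (adjusted p 0.741) with SNS-032 and above DMSO, at 0.58 (adjusted p 0.048), after 6 h of 955. The authors' deposited table gave a log2 fold change of -0.92 after 1 h of 955, with an FDR of 0.0505, which lies just outside the threshold on both counts (standard error 0.25, interval -1.45 to -0.39). After 6 h of 955 it gave -0.44 in the authors' deposited table (FDR 0.247, standard error 0.25, interval -0.97 to 0.08). With SNS-032 the value in the authors' deposited table was -1.17 (FDR 0.00165, standard error 0.25, interval -1.71 to -0.64), a level 0.444 of that in DMSO. The JUNB levels, from low to high, ran from SNS-032 through 955 at 1 h and 6 h to DMSO. In that order, 955 at 6 h did not differ beyond the error from DMSO or from 955 at 1 h. SNS-032 was not tested against 955 at 1 h. Of the 3 genes, JUNB was the nearest to the bound that admits a gene to the table, since only its SNS-032 value passed it. Its average level was 4.92 on the log2 CPM scale (30.3 on the linear CPM scale) in the authors' deposited table, above 63.8% of the listed genes. HOOK2, which encodes a microtubule-linking protein, lies on the opposite strand and shares 259 of the 1820 exonic bases of JUNB in GENCODE 29. The use of strand in counting is not given in the sources used here. Under the authors' scaling HOOK2 lay on the other side of DMSO in the authors' deposited table. Its log2 fold changes were 0.47 (FDR 0.148) and 1.19 (4.99e-06) for 955 at 1 h and 6 h and 1.65 (3.64e-08) for SNS-032. These lay below the medians of 13 mitochondrially encoded mRNAs (0.67, 2.07 and 2.35), so scaled on those medians HOOK2 was below DMSO too. The part of shared reads in the JUNB values was not tested. FOSL2 overlaps an antisense transcript, FLJ31356, by 2225 bases, with 0 exonic bases in common.

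**Figure D1:**
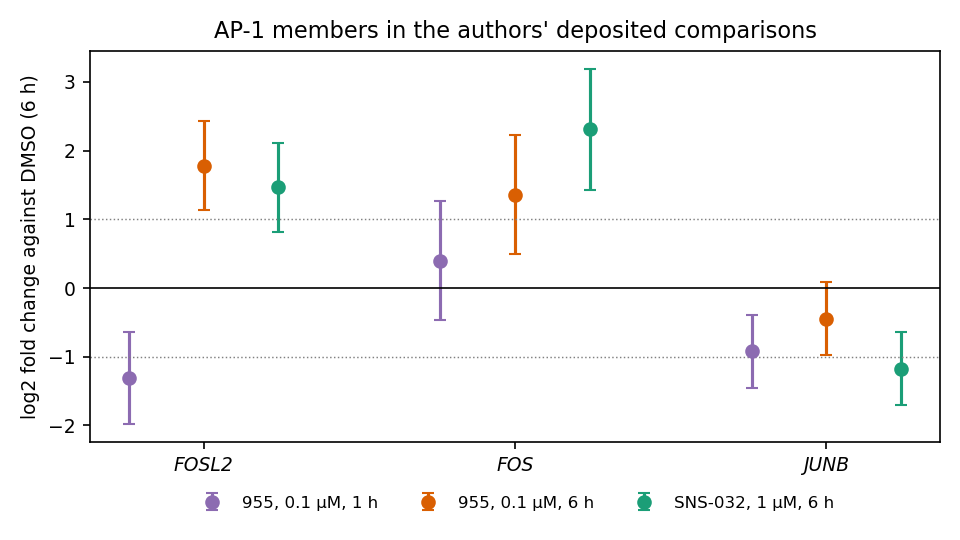
Log2 fold change against DMSO at 6 h (vertical axis) for FOSL2, FOS and JUNB in the 3 comparisons of the authors' deposited table, with 95% intervals from the implied standard errors; dotted lines mark -1 and 1. FOSL2 is at -1.31 after 1 h of 955 and at 1.78 and 1.46 at 6 h, FOS rises to 2.31 with SNS-032, and JUNB is below 0 in each; on a mitochondrial mRNA scale the FOSL2 and FOS values at 6 h are below 0, and centred on the listed genes JUNB after 6 h of 955 is above it.

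By count, 1 of the 3 genes was past the threshold after 1 h of 955 (FOSL2, lower), beside 8.44% of all listed genes in either direction, 7.71% lower and 0.729% higher. After 6 h of 955 it was 2 of 3 (FOSL2 and FOS, higher), beside 85.3% of all listed genes, 35.2% higher and 50.1% lower. With SNS-032 it was all 3 (FOSL2 and FOS higher, JUNB lower), beside 90.2%, 37.8% higher and 52.5% lower. These shares follow from how the table was made, and nothing is read from the counts. The median log2 fold change of all listed genes was -0.054, -1.03 and -1.07 in the 3 comparisons. FOSL2 exceeded 5.23% of the listed genes after 1 h of 955, 84.1% after 6 h and 75.7% with SNS-032. FOS exceeded 82.5%, 74.9% and 91.1%, and JUNB 12.2%, 58.0% and 45.5%.

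The direction of the 6 h values of FOSL2 and FOS depended on the scale. The 13 mitochondrially encoded mRNAs, made by the mitochondrial RNA polymerase, had median log2 fold changes of 0.67 after 1 h of 955, 2.07 after 6 h and 2.35 with SNS-032. When these medians were set to 0, FOSL2 was at -1.98 after 1 h of 955, -0.30 after 6 h (adjusted p 0.39) and -0.88 with SNS-032 (adjusted p 0.0118). FOS was then at -0.28, -0.71 and -0.032, with adjusted p-values of 0.569, 0.12 and 0.945. JUNB was at -1.59, -2.52 and -3.52, past the threshold in all 3 comparisons. On that scale no member was above DMSO in any group, and FOSL2 was past the threshold below DMSO at 1 h but not at 6 h. FOS was not past the threshold in any group, though its value after 6 h of 955 divided by its standard error was -1.70. The adjusted p-values on this scale run over the listed genes and take the scale as free of error.

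**Figure D2:**
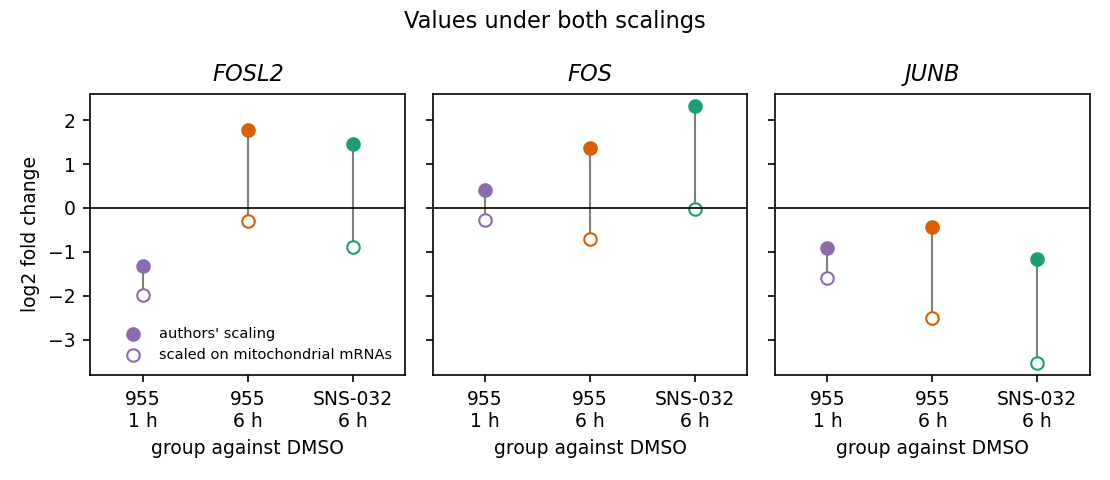
Log2 fold change against DMSO (vertical axis) of each gene in the 3 treated groups, under the authors' scaling (filled) and after setting the median of 13 mitochondrial mRNAs to 0 (open). The FOSL2 and FOS values at 6 h lie above 0 when filled and below it when open, while JUNB lies below 0 on both of these scales, though at 0.58 after 6 h of 955 when centred on the listed genes.

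The change of each gene between 1 h and 6 h of 955 compares treated groups with each other, and was tested by subtracting the value at 1 h from that at 6 h. The test was fitted on all listed genes with the shared control allowed for. It used other contrasts than those that chose the genes but the same values, so the differences are not independent of that choice. FOSL2 was higher at 6 h than at 1 h by 3.09 (standard error 0.32, interval 2.43 to 3.74, adjusted p 9.24e-09), a ratio of 8.49. This difference exceeded that of 98.1% of the listed genes. It was 1.69 on the mitochondrial scale and remained past the threshold there. FOS differed by 0.96 (standard error 0.42, interval 0.10 to 1.82, adjusted p 0.0367), just short of the fold-change bound, and by -0.43 (adjusted p 0.355) on the mitochondrial scale. Since FOS is in the table through its 6 h values alone, its difference is given as a description. JUNB differed by 0.48 (standard error 0.25, interval -0.054 to 1.00, adjusted p 0.0855), and the scale turned this value: it was -0.92 (adjusted p 0.00325) on the mitochondrial scale. Centred on the listed genes, FOS differed by 1.93 (adjusted p 0.00025) and JUNB by 1.45 (adjusted p 8.37e-05), both past the threshold. Under the authors' scaling 1 of the 3 genes was past the threshold, beside 62.6% of the listed genes. The labels give a DMSO group at 6 h only, so time in culture and time of exposure cannot be told apart.

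At 6 h, the groups given 0.1 µM of 955 and 1 µM of SNS-032 differ in compound and in dose, whose parts cannot be told apart. Of the 3 genes, 0 were past the threshold for the difference of the groups, beside 1.11% of the listed genes. An unadjusted p under 0.05 in the test of the difference was found for 2, and the share of listed genes at that cut is not given here. FOSL2 differed by 0.31 (955 minus SNS-032, standard error 0.31, adjusted p 0.714), with an interval from -0.33 to 0.96. FOS was at 1.36 with 955 and 2.31 with SNS-032, a difference of -0.95 (standard error 0.42, interval -1.83 to -0.081). Its unadjusted p was 0.0335 and its adjusted p 0.289, and 1.34% of the listed genes had a lower difference. JUNB was at -0.44 with 955 and -1.17 with SNS-032, a difference of 0.73 (standard error 0.25, interval 0.20 to 1.26). Its unadjusted p was 0.0106 and its adjusted p 0.166, and on the mitochondrial scale the difference was 1.00 (adjusted p 0.019). Since JUNB is in the table through its SNS-032 value alone, this difference rests on the value that admitted the gene and is given as a description. These intervals do not show that the groups act alike on FOSL2, since they allow a ratio near the fold-change bound.

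**Figure D3:**
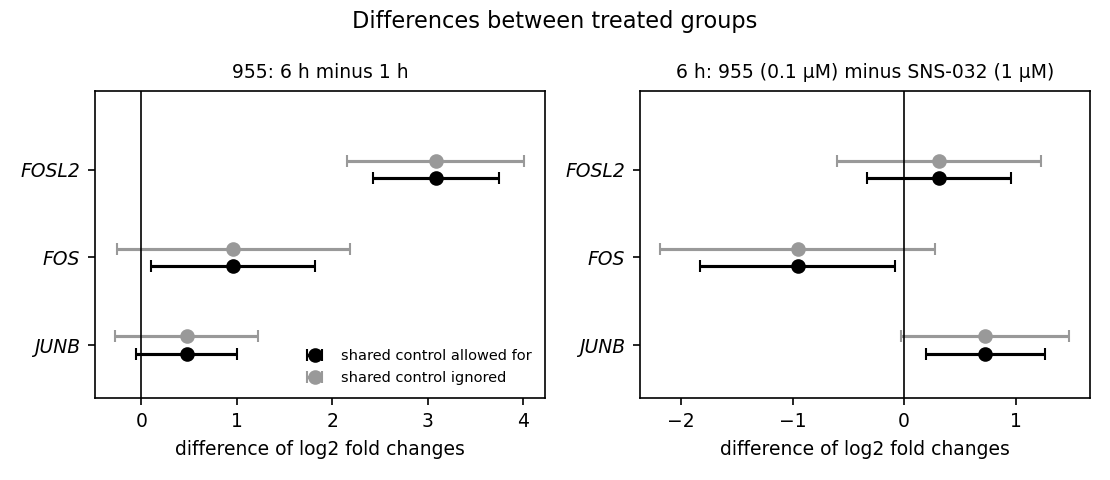
Difference of log2 fold changes (horizontal axis) with 95% intervals for FOSL2, FOS and JUNB, between 6 h and 1 h of 955 (left) and between 955 and SNS-032 at 6 h (right), with the shared control allowed for (black) or ignored (grey). FOSL2 stands at 3.09 on the left, and on the right FOS and JUNB lie on opposite sides of 0 at -0.95 and 0.73; on a mitochondrial mRNA scale FOS and JUNB on the left are below 0.

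Among genes of similar average level (within 1 log2 unit), those whose 3 log2 fold changes lay nearest to each member by Euclidean distance were named. For FOSL2, among 1681 genes, these were DHRS3, a retinal reductase, at a distance of 0.41, ADRB1, the beta-1 adrenergic receptor, at 0.44 and NEDD4L, a ubiquitin ligase, at 0.77. In the authors' deposited table DHRS3 had log2 fold changes of -0.99, 1.71 and 1.71 after 955 at 1 h, 955 at 6 h and SNS-032. For FOS, among 1294 genes, they were the T-box factor gene TBX1 at 0.20, the histone gene H4C3 at 0.37 and the transcribed pseudogene PKD1P6-NPIPP1 at 0.40. For JUNB, among 1956 genes, they were TOB2, an antiproliferative protein that binds the CCR4-NOT deadenylase, at 0.26, PLEKHF2 at 0.28 and the zinc finger gene ZNF260 at 0.33. The likeness rests on 3 values that share one control group.

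Other bZIP genes can pair with or compete against AP-1 proteins. The list used here is wider than bZIP genes and also holds CEBPZ. Under the authors' scaling CEBPZ was lower past the threshold in both 6 h comparisons, and it enters the counts and medians below. Of the 37 genes in the list, 12 were in the table. After 6 h of 955, 2 were higher (16.7%) and 9 lower (75%) past the threshold, beside 35.2% and 50.1% of all listed genes, with a median log2 fold change of -1.46 beside -1.03 over all listed genes. With SNS-032 the counts were again 2 and 9, beside 37.8% and 52.5% of all listed genes, with a median of -1.60 beside -1.07. MAFF, a small MAF protein, was at 1.95 (FDR 0.00541) and 2.27 (0.00146) after 955 and SNS-032, and CREBZF at 1.23 (2.84e-08) and 1.11 (1.33e-07), in the authors' deposited table. Scaled on the mitochondrial mRNAs, MAFF was at -0.13 and -0.074 and CREBZF at -0.84 and -1.24. Lowest in the authors' deposited table was XBP1, the effector of the IRE1 branch of the unfolded-protein response, at -4.82 (FDR 6e-06) and -5.06 (4.31e-06). DDIT3, the stress-induced CHOP factor, was at -2.74 (FDR 0.00145) and -1.78 (0.0215), and NRL at -2.18 (0.000167) and -2.49 (4.13e-05) in the authors' deposited table. CEBPG was past the threshold for SNS-032 at -1.11 (FDR 0.00101) and not for 955 at -0.46 (0.178) in the authors' deposited table. After 1 h of 955, 0 of the 12 were past the threshold by the authors' test, beside 8.44% of all listed genes. The median was -0.46, beside -0.054 over all listed genes. By the same test 4 had an unadjusted p under 0.05, and the share of all listed genes at that cut is not given here. With mitochondrial scaling, 9 of the 12 were past the threshold at 1 h, all lower. That scaling subtracts a constant from every gene, and the share of all listed genes lower on it is not given here. Nothing is therefore read from this count.

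Of 44 genes of the MAP kinase and SRF inputs to AP-1, which raise the synthesis and activity of its members, 13 were in the table. With 955 for 6 h, 5 were higher (38.5%) and 6 lower (46.2%) past the threshold, and the counts were the same with SNS-032. Both shares were near those of all listed genes, 35.2% higher and 50.1% lower for 955 and 37.8% and 52.5% for SNS-032. Their medians were -0.86 and -0.70, beside -1.03 and -1.07 over all listed genes. The p38 kinase genes MAPK13 and MAPK11 were at 2.85 (FDR 7.91e-07) and 2.19 (5.8e-08) for 955 and, for SNS-032, at 2.83 (8.16e-07) and 2.24 (3.62e-08) in the authors' deposited table. MAPK8IP3, a JNK scaffold, was at 2.01 (FDR 1.57e-09) and 2.24 (2.79e-10) in the authors' deposited table. MAP2K4, a kinase that activates JNK and p38, was at -2.57 (FDR 0.000184) and -2.91 (6.8e-05), MAP3K11 at -1.94 (7.01e-11) and -1.79 (1.76e-10), and MAP2K3 at -1.48 (4.65e-07) and -1.62 (1.19e-07) in the authors' deposited table. After 1 h of 955, MAPK13 was already at 1.499 (FDR 0.0125) and MAP3K14, the NF-kB-inducing kinase, at -1.48 (4.65e-05) in the authors' deposited table; MAP3K14 was singled out after its values were seen. After mitochondrial scaling 0 genes of the list were higher past the threshold in any comparison, and 8 and 10 were lower at 6 h with 955 and SNS-032. That scaling subtracts a constant from every gene, and the shares of all listed genes on it are not given here. Nothing is therefore read from these counts.

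Genes tied to AP-1 turnover, through FOS and JUN proteins or through AU-rich mRNAs, numbered 22 in the list, and 13 were in the table. The list is wider than ubiquitin ligases and factors that destroy AU-rich mRNAs, and holds others such as ELAVL1 and COPS5. In the authors' deposited table, ELAVL1 was lower past the threshold after 6 h of 955 (-1.21, FDR 8.06e-08). COPS5 was so with SNS-032 (-1.465, FDR 1.32e-07). Past the threshold after 6 h of 955 were 0 higher and 8 lower genes (61.5%), beside 35.2% and 50.1% of all listed genes. With SNS-032, 1 was higher and 9 lower (69.2%), beside 37.8% and 52.5%. The medians were -1.21 and -1.48, beside -1.03 and -1.07 over all listed genes. With mitochondrial scaling all 13 were lower past the threshold at 6 h with each compound. That scaling subtracts a constant from every gene, and the share of all listed genes lower on it is not given here. Nothing is therefore read from this count. EXOSC3, a subunit of the RNA exosome, was at -3.21 (FDR 4.31e-10) and -3.04 (7.63e-10), and SIRT1, a deacetylase that acts on JUN and FOS, at -1.70 (4.18e-06) and -1.84 (1.31e-06) in the authors' deposited table. ZFP36L2, which binds ATTTA-type elements and recruits deadenylases, was at -1.59 (FDR 2.85e-05) and -2.02 (2.89e-06) in the authors' deposited table. SMURF1 was the gene higher with SNS-032, at 1.26 (FDR 3.31e-08), and in the authors' deposited table its value for 955, 0.996 (1.24e-06), lay just under the bound. Mitochondrial scaling put it at -1.07 and -1.09. CNOT7, a deadenylase, was at -0.87 (FDR 5.88e-06) and -1.10 (1.98e-07), and PARN at -1.13 (0.0458) and -0.53 (0.423) in the authors' deposited table. After 1 h of 955, 3 of the 13 were lower past the threshold, beside 7.71% of all listed genes. They were SIRT1 at -1.66 (FDR 0.000127), ZFP36L2 at -1.21 (0.00327) and ZFP36L1 at -1.17 (0.0332) in the authors' deposited table. Mitochondrial scaling made the count 8, which has no share of all listed genes beside it here, so nothing is read from it. ZFP36L1 was named after its values were seen.

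Of 41 genes known as AP-1 targets in various tissues, 8 were in the table. Of these, 2 were higher (25%) and 6 lower (75%) past the threshold after 6 h of 955, beside 35.2% and 50.1% of all listed genes. With SNS-032, 2 were higher and 5 lower (62.5%), beside 37.8% and 52.5%. The higher genes were VEGFA, the endothelial growth factor, at 3.23 (FDR 0.000445) and 3.24 (0.000419), and PLAUR, the urokinase receptor, at 2.16 (3.21e-10) and 2.37 (6.26e-11) in the authors' deposited table. Their values with mitochondrial scaling were, for VEGFA, 1.16 and 0.89 and, for PLAUR, 0.087 and 0.020. The lowest were DUSP1, a MAP kinase phosphatase, at -2.97 (FDR 0.0166) and -2.79 (0.0222), and CD69, an early activation marker of lymphocytes, at -2.78 (0.0216) and -2.86 (0.019) in the authors' deposited table. EZR was at -1.43 (FDR 5.23e-10) and -1.53 (1.41e-10), and NQO1 at -1.23 (0.00373) and -0.90 (0.0336) in the authors' deposited table. After 1 h of 955, GADD45B, a stress-induced signalling gene named after its values were seen, was past the threshold at -1.52 (FDR 0.0104) in the authors' deposited table. The medians at 6 h were -1.33 with both compounds, beside -1.03 and -1.07 over all listed genes. Over the 4 targets above the median level of the listed genes the median was 0.46 with both. It lies between 2 genes higher and 2 lower past the threshold, and the median of all listed genes at such levels is not given here. Most of these genes respond to other factors too, and the activity of AP-1 proteins was not measured.

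**Figure D4:**
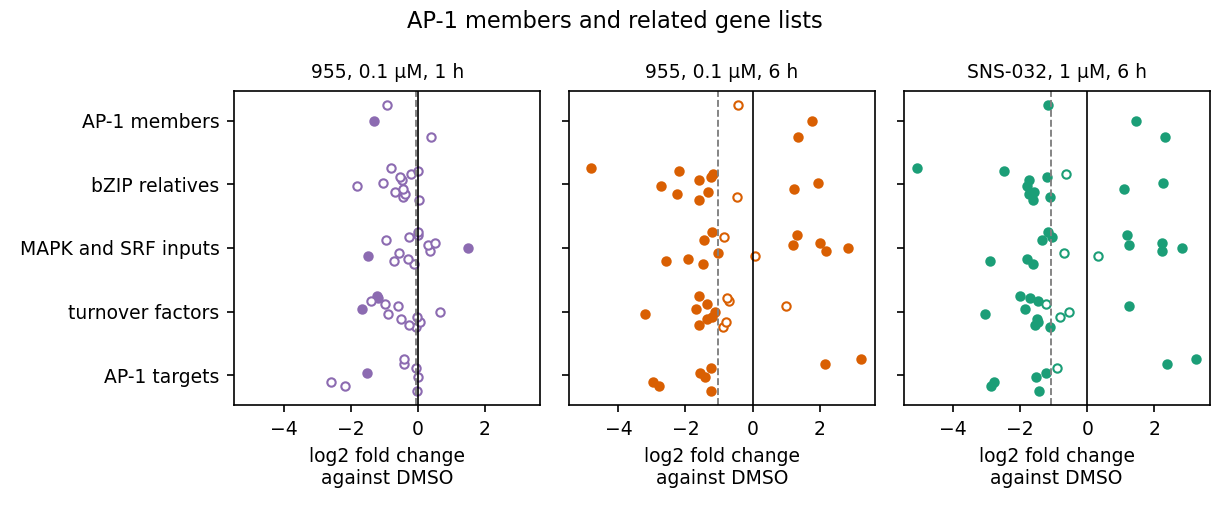
Log2 fold change against DMSO (horizontal axis) of the AP-1 members and of 4 related gene lists in the 3 comparisons of the authors' deposited table; each point is a gene, filled where past the threshold, and the dashed line is the median of all listed genes. At 6 h FOSL2 and FOS lie to the right of 0, while JUNB lies to the left, at -0.44 with 955 and -1.17 with SNS-032. Most bZIP relatives and turnover factors, and the median of all listed genes, also lie to the left. On a mitochondrial mRNA scale FOSL2 and FOS lie to the left as well, and centred on the listed genes JUNB after 6 h of 955 lies to the right.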

How the data were processed

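The values came from a deposited table of the authors' own comparisons (per the file headers, each of the 3 treated groups against DMSO). The log2 fold changes and the average log2 CPM were deposited by the authors. The fold changes were read as log2 because every gene reached at least 1.001 in size in some comparison, just past a 2-fold bound. The authors also deposited an F statistic, used here as a score from which errors were recovered, and the p-values and FDR were used as deposited by the authors. The submitters' processing notes name the build hg38 and the tool DESeq2, with no role given. The aligner, the counter, the software behind the F statistic and the use of strand are not given in the sources used here. Libraries were made from total RNA with an mRNA kit, per the labels' protocols.

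Denominator degrees of freedom were solved from F and p (scipy 1.17.1). A contrast of treated groups was the difference of their log2 fold changes, with the root mean square of both implied standard errors, a t distribution and Benjamini-Hochberg adjustment over 5759 genes. Tested on simulated counts for 955 against SNS-032 (5759 genes, 200 of them changed by 1.5 log2 units), it recovered 92.0%, and 7.07% of its calls were false, beside a bound of 0.05. The simulation gave every gene the same dispersion (0.05) and 20 degrees of freedom, at an assumed depth. The contrast of 955 at 6 h minus 1 h was not simulated. Gene IDs were matched to RefSeq GRCh38.p14 (5727 of 5759), and promoters were found for 8 of the 9 symbols. The members and gene lists were chosen with earlier results of these data known. Named genes were all members, the 3 genes nearest in pattern to each, and in each list the 3 highest and 3 lowest genes by mean log2 fold change over both 6 h comparisons, among genes past the threshold in at least 1 of them. CEBPZ, ELAVL1 and COPS5 were named outside this rule, to show what their lists hold. The alternatives were other scalings, thresholds and standard errors. The result of one list of markers is not reported here.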

Additional observations from a re-analysis of the deposited data

Results flagged for a closer look

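FOSL2 was flagged because its effects at 6 h and 1 h of 955 differed by a test of the difference itself (3.09 log2 units, adjusted p 9.24e-09), with the effects on opposite sides of DMSO under the authors' scaling. FOS was flagged by the adjusted p of the same test (0.96, adjusted p 0.0367), though its difference lay under the fold-change bound. Values that admitted each gene to the table enter its difference, so neither flag is independent of that choice. For FOS these are its 6 h values alone, and its difference is given as a description. With a standard error that ignored the shared control, the adjusted p was 0.14 for FOS and 3.89e-06 for FOSL2.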

How the results depend on the processing

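No paired analysis was possible because only comparisons, with no values per sample, were used here, and leaving out single replicates was not run for the same reason. Of the 3 members, the number past the threshold was 1 for 955 at 1 h, 2 for 955 at 6 h, 3 for SNS-032, 0 for 955 minus SNS-032 and 1 for 955 at 6 h minus 1 h. On the mitochondrial scale these became 2, 1, 1 and 1 for the first 4, and the last stayed at 1. The genes changed as well: after 6 h of 955 the call was then JUNB, lower, in place of FOSL2 and FOS, higher. With a bound of 2 on the log2 fold change they became 0, 0 and 1 in the comparisons with DMSO. With an FDR under 0.01 they became 0 for 955 at 1 h and 1 for 955 at 6 h. For 955 at 6 h minus 1 h, centring on the listed genes gave 3 and dropping the fold-change bound gave 2. Of 29 alternatives to these counts, 18 left the count within 1.5 times. With counts this small that share does not show that the calls are stable. Centring on the listed genes, for example, stayed within it for SNS-032 while the count fell from 3 to 2.

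Mitochondrial scaling reversed FOS at 1 h (-0.28), FOSL2 and FOS after 6 h of 955 (-0.30 and -0.71) and with SNS-032 (-0.88 and -0.032), and FOS and JUNB in 955 at 6 h minus 1 h (-0.43 and -0.92, the latter with an adjusted p of 0.00325). Centring on the listed genes reversed JUNB after 6 h of 955 (0.58) and ended the call of JUNB with SNS-032 (-0.10, adjusted p 0.741). Each reversal follows from subtracting a constant from every gene. Which scale is nearer to amounts per cell was not tested. Depth per sample is unknown, so low counts behind FOS and FOSL2 could not be examined.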
